A study of Homo sapiens with 6 samples.

Results

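The genes described here are 10 genes of membrane traffic in polarised cells: AP1M1, AP1M2, AP1S1, AP1S2 and AP1S3 of the AP-1 clathrin adaptor, the synaptotagmin-like genes SYTL1, SYTL2 and SYTL5, and the class V myosin genes MYO5B and MYO5C. They were found by symbol among the 59050 symbols counted. The set was chosen from earlier results of the same comparison, to set the epithelial gene AP1M2 beside its ubiquitous paralog AP1M1. The levels and changes of the 10 genes are therefore given as a description, without a test. The study measured RNA-seq read counts in 6 libraries of the cell line H2122, which derives from a human lung cancer. Per the labels, 3 libraries came from a SMARCA4 knockout of that line and 3 from the parental line, labelled WT, and all cells received vehicle. The titles carry a number that is 1 for all knockout libraries and 1, 3 and 6 for the parental ones, and the labels do not say whether it marks a clone. Nor do they state that replicates came from different cultures. The p-values thus reflect the spread among these 6 samples alone, and that spread may be technical.

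The AP-1 adaptor (not the transcription factor of that name) recruits clathrin to the trans-Golgi network and to recycling endosomes. It is built from the large subunits gamma and beta1, a medium subunit mu1 and a small subunit sigma1. The mu1 subunit reads sorting signals in the tails of cargo proteins: mu1A, from AP1M1, is made in nearly all cells, and mu1B, from AP1M2, mainly in epithelia, where it serves delivery to the basolateral membrane. Synaptotagmin-like proteins bind RAB27 on secretory vesicles and tether them to the plasma membrane. Myosin V motors carry vesicles along actin, with myosin Vb acting with RAB11 at the recycling endosome beneath the apical surface.

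Gene-assigned reads per library numbered 55120937 to 59917980. Levels are CPM, read counts scaled to a common library size with TMM factors, and 3 reads, taken as the limit of detection in a library, corresponded to 0.0497 to 0.0544 CPM. Such limits and the intervals below cover counting error only. SMARCA4, the targeted ATPase gene of SWI/SNF chromatin remodelling complexes, fell from 260.2 ± 65.2 to 21.6 ± 2.93 CPM (SD, n = 3; log2 fold change -3.59, SE 0.22, edgeR quasi-likelihood adjusted p = 0.000176). On the second principal component, with 17.8% of the variance, parental replicate 3 was far from the remaining libraries, so values without it are given where they matter. Of 6 epithelial markers 5 fell and none rose, and their summed level was 3155 to 3421 CPM in the knockout and 6927 to 7696 CPM in the parental libraries. Of 8 fibroblast markers 3 had enough reads to be tested, of which 2 rose and 1 fell, with sums of 53.4 to 58.0 CPM against 39.3 to 110.0 CPM and THY1 at 0 reads in all libraries. Of 5 endothelial markers 2 were tested and 1 rose, with sums of at most 1.40 CPM, and of 6 haematopoietic markers 3 were tested and 2 fell, with sums of at most 1.28 CPM and PTPRC at 0 reads in all libraries. The part of these markers in the results below was not tested. In RNA from a whole culture, fewer cells of a type and less RNA per cell cannot be told apart.

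The genes of the medium subunit behaved unlike each other: AP1M2 was nearly lost in the knockout libraries and AP1M1 was at similar levels in both groups. AP1M2 (ENSG00000129354, chromosome 19, 10572671 to 10587315 on the minus strand of GRCh38) stood at 91.5, 93.7 and 93.0 CPM in the parental libraries and at 0.336, 0.272 and 0.430 CPM in the knockout ones. The knockout values rest on 19, 15 and 26 reads, so AP1M2 was still detected in every library, at 0.373% of its parental mean. The log2 fold change was -8.05 (SE 0.19), and the ratio of the group sums was 266 with an exact 95% counting interval of 207 to 349. The SD of its parental values was 1.17 CPM, and parental replicate 3 lay between the other parental libraries. AP1M1 (ENSG00000072958, chromosome 19, 16197578 to 16245907 on the plus strand) stood at 43.5, 46.2 and 42.9 CPM in the parental libraries and 43.4, 40.7 and 42.1 CPM in the knockout ones. The groups overlapped for AP1M1, with a log2 fold change of -0.07 (SE 0.09), and of -0.14 without parental replicate 3. In that setting 61.6% of all genes passed, AP1M1 among them as lower, and nothing is read from its call.

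The coding sequences of AP1M1 and AP1M2 are equally long, at 1269 bases, so their shares per coding length equal their shares of reads. The reads were counted for whole genes, so equal coding lengths do not make the levels directly comparable. Per coding length AP1M2 gave 67.8%, 67.0% and 68.4% of the mu1 reads in the parental libraries, with 95% Wilson intervals between 66.0% and 69.5%. In the knockout libraries it gave 0.768%, 0.665% and 1.012%, with intervals between 0.403% and 1.48%. The shares depend on the length used, because the annotated principal transcript of AP1M1 has 13193 bases and that of AP1M2 has 1749. Per transcript length, AP1M2 made up 94.1% ± 0.185 of mu1 in the parental and 5.83% ± 1.21 in the knockout group (SD, n = 3). On both scales AP1M2 was the major mu1 gene in each parental library and the minor one in each knockout library. The level of AP1M1 was not higher where AP1M2 was low: the sum of both genes went from 136.9 ± 2.63 CPM in the parental to 42.4 ± 1.39 CPM in the knockout group. No stretch of 50 bases of the AP1M2 transcript occurs in an annotated transcript of another gene, AP1M1 included.

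**Figure D1:**
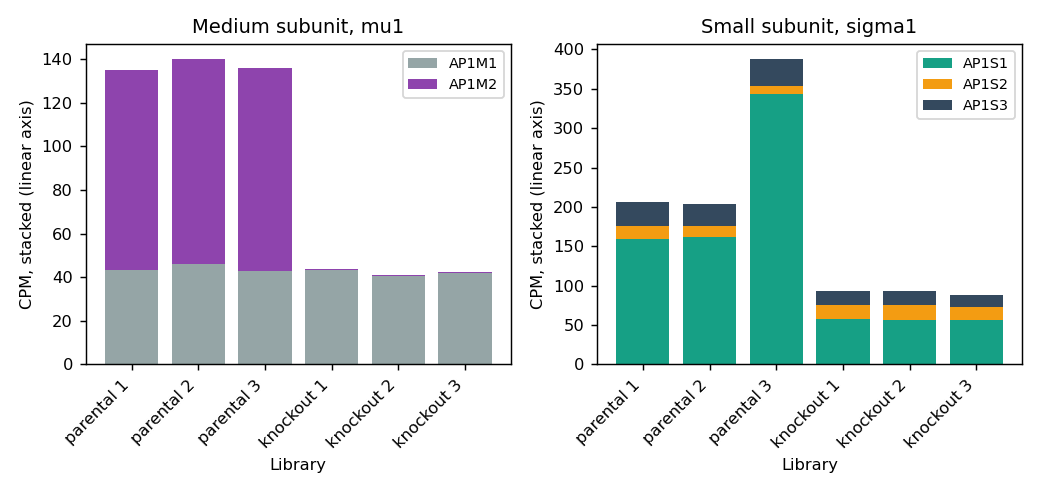
Stacked bars give the CPM (linear axis) of the mu1 genes AP1M1 and AP1M2 (left) and of the sigma1 genes AP1S1, AP1S2 and AP1S3 (right) in each of the 6 libraries. AP1M1 is alike in all libraries at 40.7 to 46.2 CPM while AP1M2 is present in the parental bars and barely visible in the knockout bars, and parental replicate 3 has about 2.14 times the AP1S1 level of the other parental libraries.

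The bases upstream of the start of AP1M2 are shown because they hold a repeated short motif. Those of MYO5B, which carries the same motif as often, and of MYO5C, which carries it less often, are shown too. RefSeq promoter windows (250 bases before to 50 after a gene's start, GRCh38.p14) were found for 8 of the 10 genes, all but AP1M1 and SYTL2. The motif searched was the E-box CAGGTG, which reads CACCTG on the other strand and is known as a binding sequence of the repressors ZEB1 and SNAI1. Each line gives the 250 bases before the start, 5′ to 3′ on the gene's strand, with the E-boxes in capitals. AP1M2 lies at chr19:10587313-10587562, MYO5B at chr18:50195148-50195397 and MYO5C at chr15:52295805-52296054, all on the minus strand.
AP1M2: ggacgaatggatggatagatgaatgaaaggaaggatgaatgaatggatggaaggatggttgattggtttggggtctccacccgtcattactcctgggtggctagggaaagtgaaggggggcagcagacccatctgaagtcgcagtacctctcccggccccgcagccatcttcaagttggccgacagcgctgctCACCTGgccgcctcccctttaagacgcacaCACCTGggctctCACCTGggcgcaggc
MYO5B: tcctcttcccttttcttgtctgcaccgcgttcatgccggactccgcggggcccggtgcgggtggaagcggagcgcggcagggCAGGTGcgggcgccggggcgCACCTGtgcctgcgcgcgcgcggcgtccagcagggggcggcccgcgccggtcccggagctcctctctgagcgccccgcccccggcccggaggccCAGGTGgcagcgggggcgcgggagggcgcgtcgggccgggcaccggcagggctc
MYO5C: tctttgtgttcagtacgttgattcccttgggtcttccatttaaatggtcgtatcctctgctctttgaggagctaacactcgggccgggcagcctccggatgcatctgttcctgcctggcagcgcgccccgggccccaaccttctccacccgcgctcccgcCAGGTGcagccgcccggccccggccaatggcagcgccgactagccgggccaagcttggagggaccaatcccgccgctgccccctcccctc
In AP1M2 the 3 matches begin 57, 27 and 15 bases before the start, and all read CACCTG. MYO5B also has 3 matches, which begin 168, 148 and 54 bases before the start, and MYO5C has 1, 90 bases before it. AP1S3 has 1 match, which begins at base 37 after the start, and none was found in the windows of AP1S1, AP1S2, SYTL1 or SYTL5. Of 35116 windows of the same length, 20.6% held at least 1 match and 0.635% held at least 3. Those windows were not matched for base composition. G and C made up 80.0% of the MYO5B window and 60.7% of that of AP1M2, against a median of 58.7% over all windows. TGANTCA, the site of FOS and JUN dimers, was found in SYTL1 and in 1 of 2 windows of SYTL5, against 7.71% of all windows. These are matches of letters that do not overlap each other, and whether any factor binds there was not measured here.

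The small subunit genes differed less: AP1S1 and AP1S3 stood lower in the knockout libraries, and the groups overlapped for AP1S2. AP1S1 (chromosome 7, 101154400 to 101161596), the sigma1 gene mutated in MEDNIK syndrome, stood at 159, 161 and 343 CPM in the parental libraries and at 57.6, 56.3 and 56.5 CPM in the knockout ones. Parental replicate 3 had 2.14 times the mean of the other parental libraries, and every knockout library lay below every parental one. The log2 fold change of AP1S1 was -1.96 (SE 0.33), and -1.54 without parental replicate 3. AP1S3 (chromosome 2, 223751686 to 223838027), variants of which are linked to pustular psoriasis, stood at 30.7, 28.2 and 34.0 CPM in the parental and 18.5, 18.5 and 15.5 CPM in the knockout libraries (log2 fold change -0.82, SE 0.13). Its groups did not overlap, and its parental libraries were closer to each other than those of AP1S1. AP1S2 (chromosome X, 15825806 to 15854931), mutated in an X-linked intellectual disability, stood at 17.0, 14.4 and 10.7 CPM in the parental and 17.3, 18.6 and 16.7 CPM in the knockout libraries. Its groups overlapped, and its log2 fold change of 0.32 (SE 0.19) was 0.11 without parental replicate 3, the library with its lowest value. Of the 50-base stretches of the AP1S2 transcript, 16.2% also occur in the processed pseudogene AC025048.6, which held at most 14 reads in a library, so the AP1S2 counts are uncertain to that extent.

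AP1S1 gave most of the sigma1 level in every library. Per coding length its share was 81.2% ± 6.20 in the parental and 61.5% ± 1.74 in the knockout group (SD, n = 3). The sum of the 3 sigma1 genes was 206.8, 203.9 and 387.5 CPM in the parental libraries and 93.4, 93.4 and 88.6 CPM in the knockout ones. The sigma1 sum was thus lower in each knockout library, as the mu1 sum was, while the spread between parental libraries was wide for sigma1 (SD 105 CPM) and narrow for mu1 (SD 2.63 CPM).

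**Figure D2:**
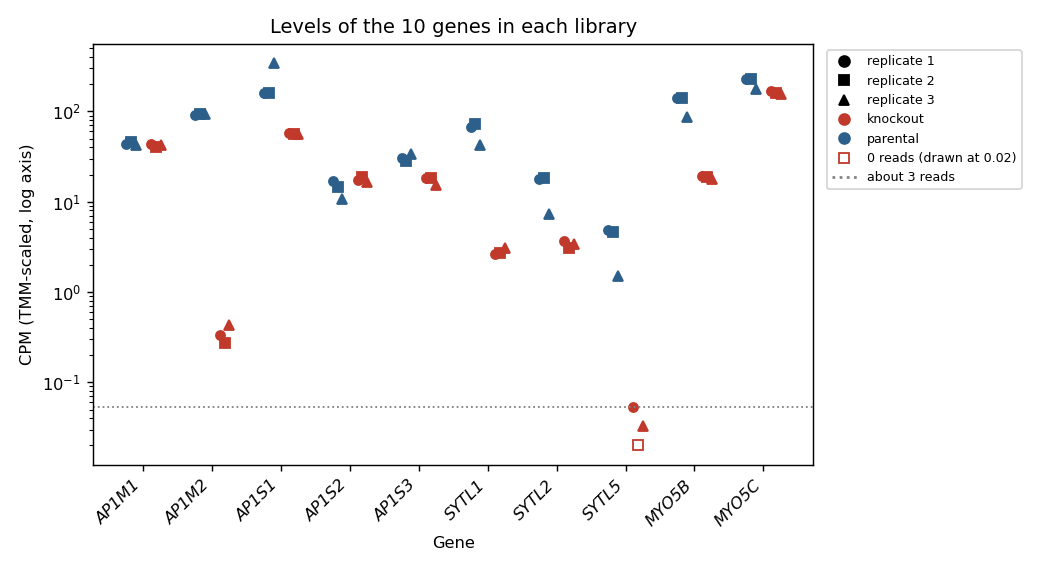
Each point is the CPM (log axis) of 1 gene in 1 library, with parental libraries in blue, knockout libraries in red and the replicate given by the symbol. The groups are far apart for AP1M2, SYTL1 and SYTL5, overlap for AP1M1 and AP1S2, and the triangle of parental replicate 3 lies apart from the other parental points for AP1S1, SYTL1, SYTL2, SYTL5 and MYO5B.

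All 3 synaptotagmin-like genes of the set were lower in every knockout library than in any parental one. SYTL1 (chromosome 1, 27342020 to 27353937), which encodes Slp1, stood at 66.8, 72.4 and 42.6 CPM in the parental and at 2.63, 2.69 and 3.06 CPM in the knockout libraries (log2 fold change -4.44, SE 0.24). SYTL2 (chromosome 11, 85694224 to 85811159), which encodes Slp2, an effector of RAB27A in vesicle docking, stood at 17.9, 18.1 and 7.38 CPM in the parental and 3.68, 3.08 and 3.44 CPM in the knockout libraries. Its log2 fold change was -2.09 (SE 0.36), and -2.45 without parental replicate 3, where SYTL2 had 0.410 times the mean of the other parental libraries. SYTL5 (chromosome X, 38006582 to 38128819), which encodes Slp5, stood at 4.90, 4.59 and 1.51 CPM in the parental libraries. The knockout libraries held 3, 0 and 2 SYTL5 reads, none above the limit of detection. The ratio of the group sums for SYTL5, 640 to 5 reads, was 127 with an exact 95% counting interval of 54.0 to 391.8. SYTL5 reached the low-count filter only through the parental libraries. All 3 genes were lowest in replicate 3 among the parental libraries, at 0.613 (SYTL1), 0.410 (SYTL2) and 0.319 (SYTL5) times the mean of the others.

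The myosin V genes were unequal. MYO5B (chromosome 18, 49822813 to 50195093), the motor mutated in microvillus inclusion disease, stood at 141, 141 and 87.3 CPM in the parental and 19.3, 18.99 and 18.0 CPM in the knockout libraries (log2 fold change -2.72, SE 0.21). MYO5C (chromosome 15, 52192322 to 52295798), a myosin V of glandular epithelia, stood at 226, 226 and 176.5 CPM in the parental and 169, 159 and 156 CPM in the knockout libraries (log2 fold change -0.38, SE 0.13). The groups overlapped for neither gene, and parental replicate 3 was the lowest parental library for both. Per coding length, MYO5B made up 37.0%, 37.1% and 31.8% of the pair in the parental libraries and 9.72%, 10.1% and 9.79% in the knockout ones. MYO5C was the more abundant of the pair in all 6 libraries, by more in the knockout. Annotated exons of MYO5B share 7.44% of their bases with other genes, among them the antisense gene SNHG22, and those of MYO5C share 3.17% with the antisense RNA gene CERNA1. The strand setting of the counting is not given in the sources used here, so reads of those bases are uncertain.

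**Figure D3:**
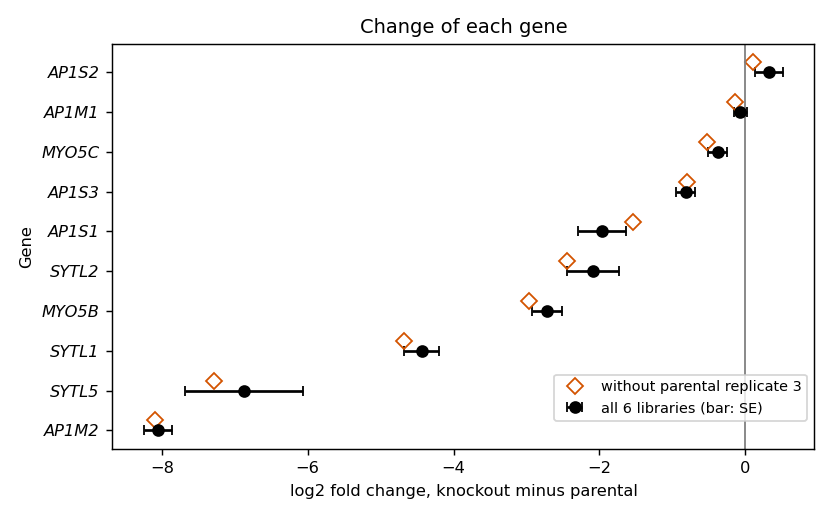
Filled points give the log2 fold change (knockout minus parental) of each of the 10 genes with its standard error, and open diamonds the value without parental replicate 3. AP1M2 lies lowest at -8.05 and AP1S2 highest at 0.32, and the diamonds keep the order of the genes, with AP1S1 moving from -1.96 to -1.54 and SYTL2 from -2.09 to -2.45; the SYTL5 value rests on 5 knockout reads.

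Among all 17809 genes tested, 27.6% passed an adjusted p under 0.05, with 14.3% lower and 13.3% higher in the knockout. Of the 10 genes described here 7 passed, all lower in the knockout, and AP1M1, AP1S2 and MYO5C did not. Since this comparison chose the genes, nothing is read from that count. Knockout and parental values were separate for 8 of the 10 genes and for 49.8% of all genes tested. The median log2 fold change of the 10 genes was -2.02, against 0.02 for all genes tested, and for the same reason nothing is read from that either. Without parental replicate 3, 9 of the 10 passed, all lower, where 61.6% of all genes did.

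Levels were compared between the 10 genes only per length. In CPM per kilobase of coding sequence, AP1S1 (466.3 ± 222.5, SD, n = 3) was the highest in the parental group, followed by AP1M2 (73.1 ± 0.919) and AP1S3 (67.0 ± 6.33), whose library ranges overlapped. From MYO5C (40.1 ± 5.47) through SYTL1, AP1M1 and AP1S2 to MYO5B (22.2 ± 5.61), each gene's range overlapped that of the next. SYTL2 (5.30 ± 2.25) and SYTL5 (1.67 ± 0.855) were lowest and apart from the others. In the knockout group AP1S1 was again highest (119.8 ± 1.45), and AP1S3 and AP1S2, at 37.9 ± 3.79 and 37.2 ± 2.05, did not differ beyond their ranges, nor did AP1M1 and MYO5C at 33.1 ± 1.07 and 30.9 ± 1.24. AP1M2 went from the second place in the parental group to the ninth in the knockout, at 0.273 ± 0.0628, above only SYTL5. By whole transcript length AP1S1, AP1M2 and AP1S3 also had the highest means in the parental group, where the range of AP1S3 overlapped that of SYTL1. AP1M2 and SYTL5 were again the lowest in the knockout. The order of the other genes depended on the length used. Per transcript length, AP1M1 (3.35 ± 0.132) was low in the parental group, and its range overlapped that of SYTL2 (3.36 ± 1.43). In the knockout group AP1S3 (21.1 ± 2.11) then lay apart from AP1S2 (7.83 ± 0.432). MYO5C (23.1 ± 0.929) likewise lay apart from AP1M1 (3.19 ± 0.103).

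The genes most like AP1M2 were sought among 10971 genes with a mean of at least 5 CPM, by the root mean square difference of log2 CPM centred on each gene's mean, over the 6 libraries. The nearest was TMPRSS11E, a membrane serine protease gene, at a distance of 0.17, with 68.5 ± 7.47 CPM in the parental and 0.232 ± 0.0154 CPM in the knockout group (SD, n = 3). FAM83F followed at 0.22 and RAB25, a RAB11 family GTPase of epithelia, at 0.26. The knockout levels of FAM83F were 0.0726 to 0.0993 CPM, little above the limit of detection, so its distance is imprecise. ABCA12, a lipid transporter gene, and the mucin gene MUC4 were at 0.32 and 0.34. The knockout levels of MUC4 were 0.0177, 0.0181 and 0.0497 CPM, none above the limit of detection, so its distance is uncertain. The 5 genes were chosen by this likeness and lie on 5 chromosomes other than that of AP1M2. RAB25 is the only one of them that is also in a list of trafficking partners described next.

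The other genes of these pathways were read from 6 lists, by edgeR's quasi-likelihood test adjusted over all genes. Of all genes tested 27.6% passed, 14.3% as lower and 13.3% as higher, and 61.6% passed without parental replicate 3. A list count near those shares is not particular to that list. Of 18 genes of the AP-1 core and clathrin coat, 4 fell, 1 rose and 13 did not pass, with a median log2 fold change of -0.30. The alternative gamma subunit gene AP1G2 fell from 99.1 ± 20.8 to 52.1 ± 8.02 CPM (-0.93, adjusted p = 0.0155). The clathrin light chain gene CLTB fell from 162 ± 33.9 to 96.5 ± 3.22 CPM (-0.75, adjusted p = 0.0215). AP1B1 (-0.69) and CLINT1 (-0.34), named after their values were seen, were the other fallers. AP1B1 encodes the beta1 subunit, and the main gamma subunit gene AP1G1 did not pass (129.2 CPM in the parental and 135.5 CPM in the knockout group, log2 fold change 0.07). HEATR5A rose from a parental level of 31.0 ± 0.876 CPM (log2 fold change 0.95, SE 0.10, adjusted p = 0.00112). Each of the 4 falls was lost without knockout replicate 1 and without knockout replicate 2, and those of AP1B1, CLINT1 and CLTB also without knockout replicate 3. The falls of CLINT1 and CLTB were lost without parental replicate 1 and without parental replicate 2 too. HEATR5A passed in all 13 alternatives. Without parental replicate 3 the list had 13 falling and 2 rising genes, where 61.6% of all genes passed.

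Of 20 subunit genes of the adaptors AP-2 to AP-5, 2 fell and the other 18 did not pass. Their median log2 fold change was 0.00. AP2B1, the beta subunit gene of the endocytic adaptor AP-2, fell from 678.0 ± 6.77 to 417.9 ± 17.3 CPM (-0.70, adjusted p = 0.00369). AP3D1 changed by -0.35 (adjusted p = 0.0494), and that call was lost without any 1 knockout library and without parental replicate 1 or 2. Without parental replicate 3, 9 of the 20 fell and 1 rose, where 61.6% of all genes passed. AP2M1, the mu subunit gene of AP-2, and AP3M1, that of AP-3, did not pass, at -0.51 and 0.32.

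**Figure D4:**
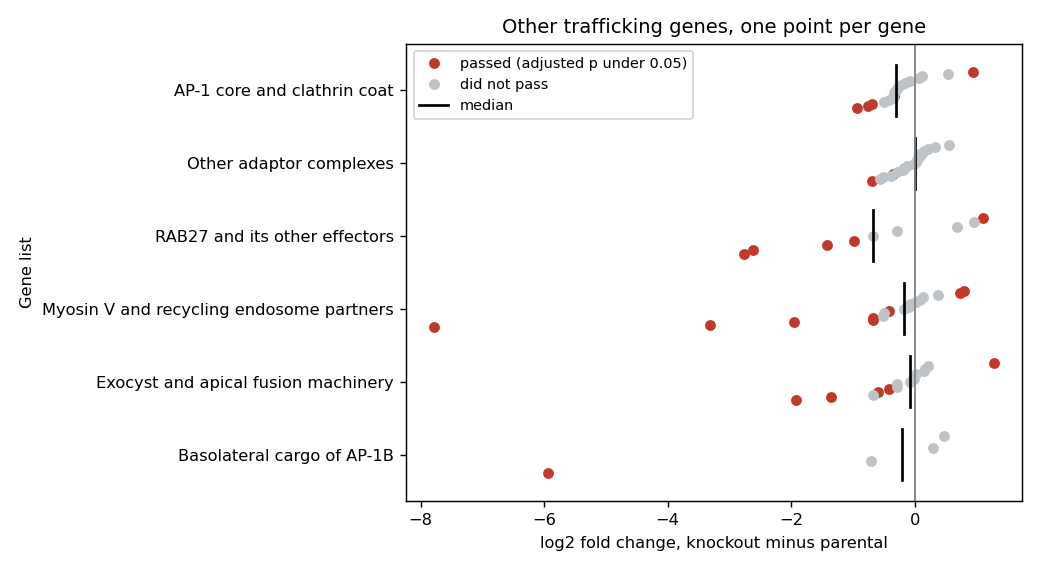
Each point is the log2 fold change (knockout minus parental) of 1 gene of the 6 lists, red where it passed an adjusted p under 0.05 and grey where it did not, with the median of each list as a black bar. The adaptor lists lie near 0, while RAB25 (-7.78), CDH1 (-5.94), RAB11FIP4 (-3.31), EXPH5 (-2.76) and RPH3AL (-2.62) lie far to the left.

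Partners of the synaptotagmin-like proteins changed in both directions. Of 9 tested genes of RAB27 and its other effectors, 4 fell, 1 rose and 4 did not pass, with a median of -0.67. EXPH5, which encodes the RAB27 effector Slac2-b, fell from 30.7 ± 6.82 to 4.54 ± 0.142 CPM (-2.76, adjusted p = 0.000222). RPH3AL, which encodes Noc2, fell from 54.7 ± 6.55 to 8.91 ± 0.140 CPM (-2.62, adjusted p = 6.91e-05). UNC13D, the vesicle priming factor Munc13-4, fell from 325.1 ± 34.4 to 121.3 ± 7.33 CPM (-1.42, adjusted p = 0.000482). The GTPases themselves, named after their values were seen, went opposite ways. RAB27A fell from 35.95 ± 13.3 to 18.2 ± 0.727 CPM (-0.98, adjusted p = 0.0336). That call disappeared when any 1 knockout library was left out. RAB27B rose from 83.0 ± 6.03 to 179.4 ± 10.4 CPM (1.11, adjusted p = 0.00071). The remaining synaptotagmin-like genes SYTL3 and SYTL4 did not pass, at -0.28 and 0.68. Without parental replicate 3, 5 genes of the list fell and 3 rose, where 61.6% of all genes passed.

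Of 17 genes of myosin V and its recycling endosome partners, 6 fell, 2 rose and 9 did not pass, with a median of -0.17. RAB25 fell from 111.4 ± 22.2 to 0.505 ± 0.0655 CPM (-7.78, adjusted p = 1.77e-05). The RAB11 effector genes RAB11FIP1 and RAB11FIP4 changed by -1.96 (adjusted p = 0.000463) and -3.31 (adjusted p = 0.000132). RAB11FIP2 and RAB11FIP3, named after their values were seen, changed by 0.79 and 0.74, and these calls were lost without any 1 knockout library. RAB11FIP2 was also lost without parental replicate 2 and RAB11FIP3 without parental replicate 1. RAB11A changed by -0.67 (adjusted p = 0.00273) and passed in all 13 alternatives. MYO5A, the third class V myosin gene, did not pass, at 153.2 CPM in the parental and 143.4 CPM in the knockout group (-0.10). Without parental replicate 3, 12 genes of the list fell and 3 rose, where 61.6% of all genes passed.

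Of 15 tested genes of the exocyst and the apical fusion machinery, 4 fell, 1 rose and 10 did not pass, with a median of -0.07. The apical syntaxin gene STX3 fell from 38.7 ± 11.2 to 10.2 ± 0.564 CPM (-1.92, adjusted p = 0.00211). The vesicle SNARE gene VAMP8 fell from 82.3 ± 2.26 to 31.98 ± 0.368 CPM (-1.36, adjusted p = 0.000165). STXBP2, which encodes a syntaxin-binding protein of epithelia and was named after its values were seen, changed by -0.60 (adjusted p = 0.0209). Of the 9 exocyst genes, EXOC4, also named after its values were seen, was the 1 that passed (-0.42). The calls of STXBP2 and EXOC4 were lost without any 1 library other than parental replicate 3. Without that library 9 genes of the list fell and 1 rose, where 61.6% of all genes passed. Of 4 genes for basolateral cargo of the AP1M2 form of the adaptor, the cadherin gene CDH1 fell (340.9 ± 173.8 to 5.56 ± 0.105 CPM, -5.94, adjusted p = 0.000553). TFRC (0.29) and CXADR (0.48), which encode the transferrin receptor and a virus receptor of cell junctions, did not pass. Without parental replicate 3, 1 gene of this list fell and 2 rose, where 61.6% of all genes passed.

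AP1M2 lies 374 kb from SMARCA4, the targeted gene, on chromosome 19. Of the 9 genes tested between them, 2 fell, 1 rose and 6 did not pass, where 27.6% of all genes passed. Their median log2 fold change was 0.07. The neighbour of AP1M2 on that side, the choline transporter-like gene SLC44A2, starts 15.1 kb from the start of AP1M2 and is read in the other direction. SLC44A2 fell from 178.5 ± 32.6 to 5.63 ± 0.333 CPM (-4.99, SE 0.18, adjusted p = 2.86e-05), with all knockout libraries below all parental ones. YIPF2, which shares exon bases with a neighbouring gene, changed by -1.0 (adjusted p = 0.000912) and QTRT1 by 0.58 (adjusted p = 0.036), a call lost without any 1 library other than parental replicate 3. DNM2, TMED1, CARM1 and TIMM29 did not pass, at -0.44 to 0.21. CDKN2D, on the far side of AP1M2, changed by -1.13 at a low level (3.19 ± 1.22 to 1.46 ± 0.164 CPM, adjusted p = 0.0355). It no longer passed when any 1 knockout library, or parental replicate 2, was left out.

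**Figure D5:**
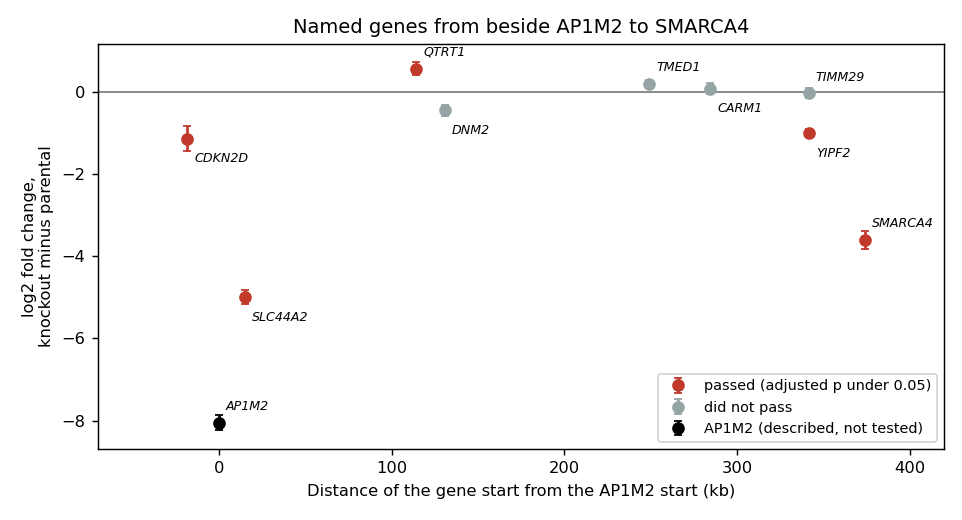
The log2 fold change (knockout minus parental, with SE) of AP1M2, SMARCA4 and the 8 genes near AP1M2 or between them that are named in the text is plotted against the distance of its start from the start of AP1M2, up to SMARCA4. AP1M2 (-8.05) and SLC44A2 (-4.99) lie low at the left and SMARCA4 (-3.59) at the right. CDKN2D (-1.13) lies to the left of AP1M2, and the other plotted genes lie between SLC44A2 and SMARCA4 at -1.0 to 0.58.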

How the data were processed

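RNA-seq of 6 H2122 libraries was analysed from the deposited files, in which the authors give unnormalised read counts by gene symbol, with a file for each library. Per the submitters' processing notes, the authors worked with TopHat2 2.1.1, HTSeq 0.11.0 and build hg38. Annotation release, strandedness and read filters: not given in the sources used here. Groups were read from the sample titles. The 5 classes of unassigned reads (13.8% to 15.3% of a file) stayed out of library sizes and tests.

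After filterByExpr and TMM scaling, counts were fitted by group alone in edgeR 4.0.16 under R 4.3.3. The two-sided quasi-likelihood F-test was robust, and p-values were Benjamini-Hochberg adjusted over 17809 genes, with 0.05 as threshold. The script was tested on simulated data. Standard errors were derived from the F value. Positions, coding lengths and APPRIS principal transcripts are those of GENCODE 29 on GRCh38, and promoter windows those of RefSeq.

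The 10 genes, the 6 lists and the motifs were chosen with earlier results of these data known. By rule, the text names SMARCA4, the 10 genes, the 5 genes nearest to AP1M2 in pattern, the genes from beside AP1M2 to SMARCA4, and from a list at most 3 passing genes, by smallest adjusted p. Every further list gene was named after its values were seen, and some named by the rule are not reported here. Alternative settings were other scaling (RLE, upper quartile), other filters (none, or 1 CPM in 3 libraries), other tools (DESeq2 1.42.0, limma-voom with limma 3.58.1), a replicate block and leaving out single libraries. Shares by other lengths were added after seeing the data.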

Additional observations from a re-analysis of the deposited data

How the results depend on the processing

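The number of genes changed, 4912, was 3040 with the replicate block and 2692 to 11325 with 1 library left out, the highest without parental replicate 3. The AP-1 core and clathrin coat list, with 5 changed genes, had 8 by DESeq2, 1 with the replicate block and 1 to 15 with 1 library left out. The list of other adaptor complexes, with 2, had 1 with upper-quartile factors, with no low-count filter and with the replicate block, 4 by DESeq2, and 1 to 10 with 1 library left out. The exocyst list, with 5, had 3 with the replicate block and 3 to 10 with 1 library left out. With 1 library left out the RAB27 list (5) had 4 to 8, the myosin V list (8) had 5 to 15 and the cargo list (1) had 1 to 3. The cause was not tested.

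The labels do not say whether replicate numbers pair the libraries. Deviations of same-numbered libraries from their group means correlated at -0.041, 0.0019 and -0.063, and no library correlated best with its own number. With 3 libraries in a group, these values cannot show that the cultures were unpaired. SMARCA4 passed under every alternative. The count of the 10 genes that passed was 8 by DESeq2, where 5990 of all genes passed, 9 without parental replicate 3, where 11325 (61.6%) did, and 7 otherwise; the genes were chosen from this comparison, so nothing is read from these counts. With 1 library left out the log2 fold change of AP1M2 ranged from -8.23 to -7.90. AP1M1 was at -0.14 with no low-count filter. By the bases of all annotated exons, AP1M2 made up 93.2% of mu1 in the parental and 5.06% in the knockout group, and AP1S1 91.9% and 81.5% of sigma1. MYO5B made up 29.8% and 7.86% of its pair per transcript length. Reads at or under 3 per library limit SYTL5 in the knockout group.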
